A study of Caenorhabditis elegans with 15 samples.

Results

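The vitellogenin genes vit-1 to vit-6 encode the yolk proteins of Caenorhabditis elegans. These 6 genes, taken by name, are 6 of the 20191 genes in the deposited table and 6 of the 15032 that passed a filter on low counts. They were followed through RNA-seq of 15 libraries, 5 from each of 3 strains. The first strain combined the alleles atfs-1(tm4525) and fndc-1(rny14) and is called the double mutant here. The second carried fndc-1(rny14) alone, and the third was wild-type N2, the background of both mutants. All were whole worms on day 1 of adulthood under standard growth without stress, and both mutant strains carry fndc-1(rny14), so no strain carries the atfs-1 allele alone. FNDC-1 is a receptor that marks mitochondria for mitophagy, and ATFS-1 is the transcription factor that switches on the unfolded protein response of mitochondria. The labels call the samples of a strain replicates without describing separate cultures, so the p-values cover only the spread within these sets of 5, some of which may be technical. Whole worms hold many tissues, so fewer cells that make a transcript and less of it per cell cannot be told apart here.

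Vitellogenins are lipid-binding proteins made in the intestine of the adult hermaphrodite, secreted into the body cavity and taken up by oocytes through the receptor RME-2. They feed the embryo and the early larva. Their transcription starts as the worm becomes an adult, needs GATA-type and homeodomain factors in the intestine, and is repressed in males by MAB-3. vit-1 to vit-5 encode the larger class of yolk polypeptide, and vit-6 encodes a precursor that is cut into the smaller ones.

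In the WBcel235 annotation the genes lie as follows. vit-1 (WBGene00006925, X:7727889-7733168) and vit-2 (WBGene00006926, X:5101042-5106169) are on the plus strand of chromosome X. vit-5 (WBGene00006929, X:3403471-3408603) is on the same strand, and vit-4 (WBGene00006928, X:3558769-3563965) and vit-3 (WBGene00006927, X:3567355-3572549) are on the minus strand. vit-4 and vit-3 are neighbours, 3389 bases apart with no annotated gene between them, while 150165 bases and 42 genes separate vit-5 from vit-4. vit-6 (WBGene00006930, IV:8261157-8266459) is on the plus strand of chromosome IV. All 6 are long for C. elegans, with 4870 to 5088 exonic bases in 5 to 8 exons and proteins of 1603 to 1651 residues. Among the 8143 genes with an average of at least 5 CPM (counts scaled to a fixed library size) and a known length, the vit genes stood between the 95.8 and 96.3 percentiles of exonic length. vit-3, vit-4 and vit-5 are near-identical copies that can share reads, and how reads that map to several places were counted is not given in the sources used here, so the split among these 3 is uncertain. Annotated genes also overlap vit-2, vit-3 and vit-4 on the opposite strand by 11, 171 and 150 exonic bases. The partner of vit-2, C42D8.9, had 1 to 16 counts in a library, and the partners of vit-3 and vit-4 are not among the genes of the table.

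Total counts were 46984106 to 61921123 per library, so counting error is small for genes at the level of the vit genes. Both targeted genes were lower than in wild type where the labels place their alleles, fndc-1 by far more than atfs-1. fndc-1 averaged 7.95 ± 1.27 CPM in the double mutant, 7.39 ± 0.130 CPM in fndc-1 worms and 40.9 ± 3.83 CPM in wild type (SD, n = 5 each). atfs-1 averaged 75.4 ± 4.59 CPM in the double mutant, 93.4 ± 4.66 CPM in fndc-1 worms and 104 ± 4.92 CPM in wild type. Its log2 fold change against wild type was -0.46 in the double mutant (adjusted p = 0.000444, edgeR's quasi-likelihood test). In the fndc-1 mutant, which has no atfs-1 allele, it was -0.155 (adjusted p = 0.220, same test). The fndc-1 log2 fold changes against wild type were -2.36 in the double mutant and -2.47 in the fndc-1 mutant. Of the 12 intestine markers, all were in the table and passed the filter, and their summed level was 5387 to 6545 CPM in the double mutant, 4836 to 6242 CPM in fndc-1 worms and 4189 to 6874 CPM in wild type. Much of this sum came from asp-1 and cpr-6, which averaged 2726 and 1308 CPM in wild type, while elt-2 averaged 16.6 CPM. Library 2 of the double mutant stood apart: its vit genes were all far below those of the other 4 libraries of its strain, and so were its long genes in general. The strain comparisons are therefore also given without it.

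The yolk genes were among the most counted genes of every worm sample. Together they took 6.45%, 2.6%, 8.76%, 5.90% and 8.04% of all counts in libraries 1 to 5 of the double mutant. In the fndc-1 mutant they took 6.25%, 6.20%, 8.07%, 7.80% and 8.24%, and in wild type 7.05%, 8.19%, 9.10%, 8.84% and 9.28%. The share averaged 6.35 ± 2.39% in the double mutant, 7.31 ± 1.00% in the fndc-1 mutant and 8.49 ± 0.907% in wild type (SD, n = 5 each). The strains overlapped, with the low end set by library 2 of the double mutant. vit-6 had more counts than any other gene in 14 of the 15 libraries; in library 2 of the double mutant eef-1A.1, a translation elongation factor, was first. Counts per gene grow with transcript length, and per exonic kilobase no vit gene was first in any library: that place went to eef-1A.1 or to the ribosomal protein gene rpl-41.2.

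**Figure D1:**
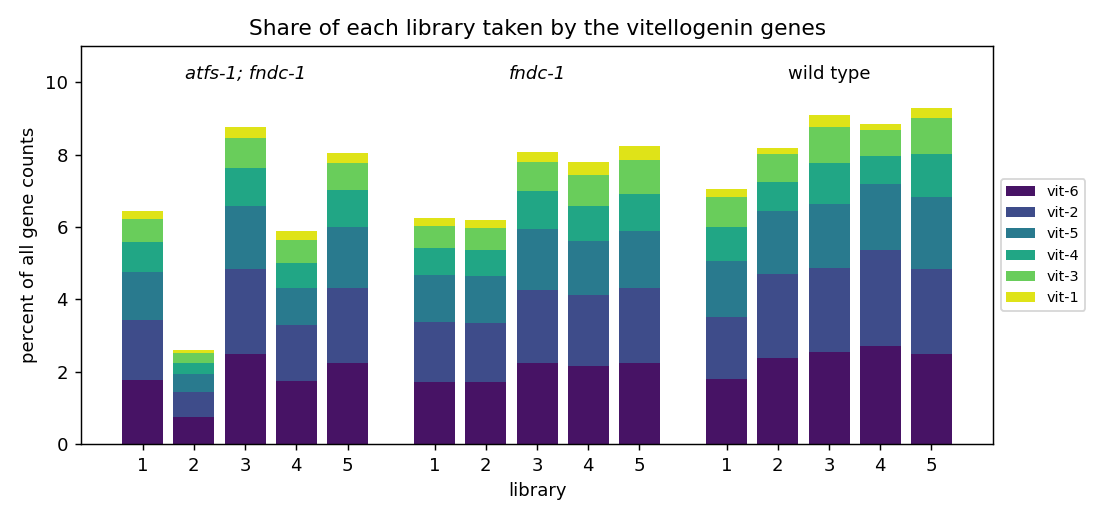
Share of all gene counts in each library taken by vit-1 to vit-6, stacked by gene, in percent, for the double mutant, the fndc-1 mutant and wild type. Double-mutant library 2 has the lowest share, 2.6%, and wild-type library 5 the highest, 9.28%.

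Per exonic kilobase the 6 genes kept almost the same order throughout. As CPM per exonic kilobase, vit-6 averaged 3607 in the double mutant, 3984 in the fndc-1 mutant and 4792 in wild type, and vit-2 averaged 3419, 3764 and 4678 in the same strains. vit-6 was above vit-2 in 13 of 15 libraries, by 0.065 ± 0.043 on the log2 scale; in wild type it was above in 3 of 5 and the difference of 0.037 ± 0.047 was within its SD. vit-5 averaged 2640 in the double mutant, 3028 in the fndc-1 mutant and 3690 in wild type. vit-4 followed with 1609, 1821 and 1987, and vit-3 with 1282, 1540 and 1762, in the same strains. vit-1 was the lowest member, at 458 in the double mutant, 588 in the fndc-1 mutant and 469 in wild type. In all 15 libraries vit-2 was above vit-5, vit-5 above vit-4, vit-4 above vit-3 and vit-3 above vit-1. The levels of vit-3, vit-4 and vit-5, and so their places in this order, rest on the uncertain split of reads among these copies. The step from vit-3 to vit-1 was the widest, 1.62 ± 0.28 on the log2 scale over the 15 libraries.

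vit-2, one of the most abundant members, had 16872, 6029, 25008, 15146 and 21298 CPM in libraries 1 to 5 of the double mutant. It had 16164, 15492, 19726, 20027 and 21456 CPM in fndc-1 worms and 16268, 24069, 24117, 27134 and 23828 CPM in wild type. The strains overlapped: library 3 of the double mutant was above 4 of the wild-type libraries, and wild-type library 1 was among the low values of the fndc-1 mutant. vit-6 had 17928.5, 6544, 26789, 16993 and 23064 CPM in the double mutant. In the fndc-1 mutant it had 16858, 16298, 21989.5, 22062 and 23658 CPM, and in wild type 17498, 24572, 26291, 27498 and 25469.6 CPM. Like vit-2, it was lowest in library 2 of the double mutant, and wild-type library 1 lay well under the other wild-type libraries.

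vit-5 had 13428, 4480.0, 18809, 10165 and 17399 CPM in the double mutant. It had 12595, 12209, 16779.6, 15425 and 16717 CPM in fndc-1 worms and 14953, 17935, 18309.6, 18406 and 20249 CPM in wild type. Of the 5 wild-type values, 4 were above every fndc-1 value, and the first was within the range of both mutants. vit-4 had 8438, 2689.7, 11349.5, 6642 and 10598 CPM in the double mutant. In the fndc-1 mutant vit-4 had 7173, 7025, 10196, 9846 and 10699.9 CPM, and in wild type 9113, 8388, 11709, 7969.6 and 11871 CPM. vit-4 overlapped between all 3 strains. vit-3 had 6462, 2283, 8722, 6275 and 7816 CPM in the double mutant. It had 5992, 5636, 7766, 8794 and 9727 CPM in fndc-1 worms and 7963, 7816, 10278, 7184 and 10150.0 CPM in wild type. Here too the strains overlapped, and the 2 highest values were wild-type libraries 3 and 5.

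vit-1, the lowest member, had 2408, 770.4, 3295, 2517 and 2659 CPM in the double mutant, 2247, 2200.1, 2778, 3602 and 4142 CPM in the fndc-1 mutant, and 2177, 1879, 3438, 1658 and 2770.1 CPM in wild type. Its 5 wild-type libraries stood in the same order as for vit-3, with libraries 2 and 4 lowest, which were also the lowest for vit-4, whereas vit-2, vit-5 and vit-6 were lowest in wild-type library 1; libraries 4 and 5 of the fndc-1 mutant were above all the other vit-1 values. vit-1 supplied 3.63 ± 0.444% of the vit counts in the double mutant, 4.05 ± 0.570% in the fndc-1 mutant and 2.77 ± 0.733% in wild type (SD, n = 5 each).

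**Figure D2:**
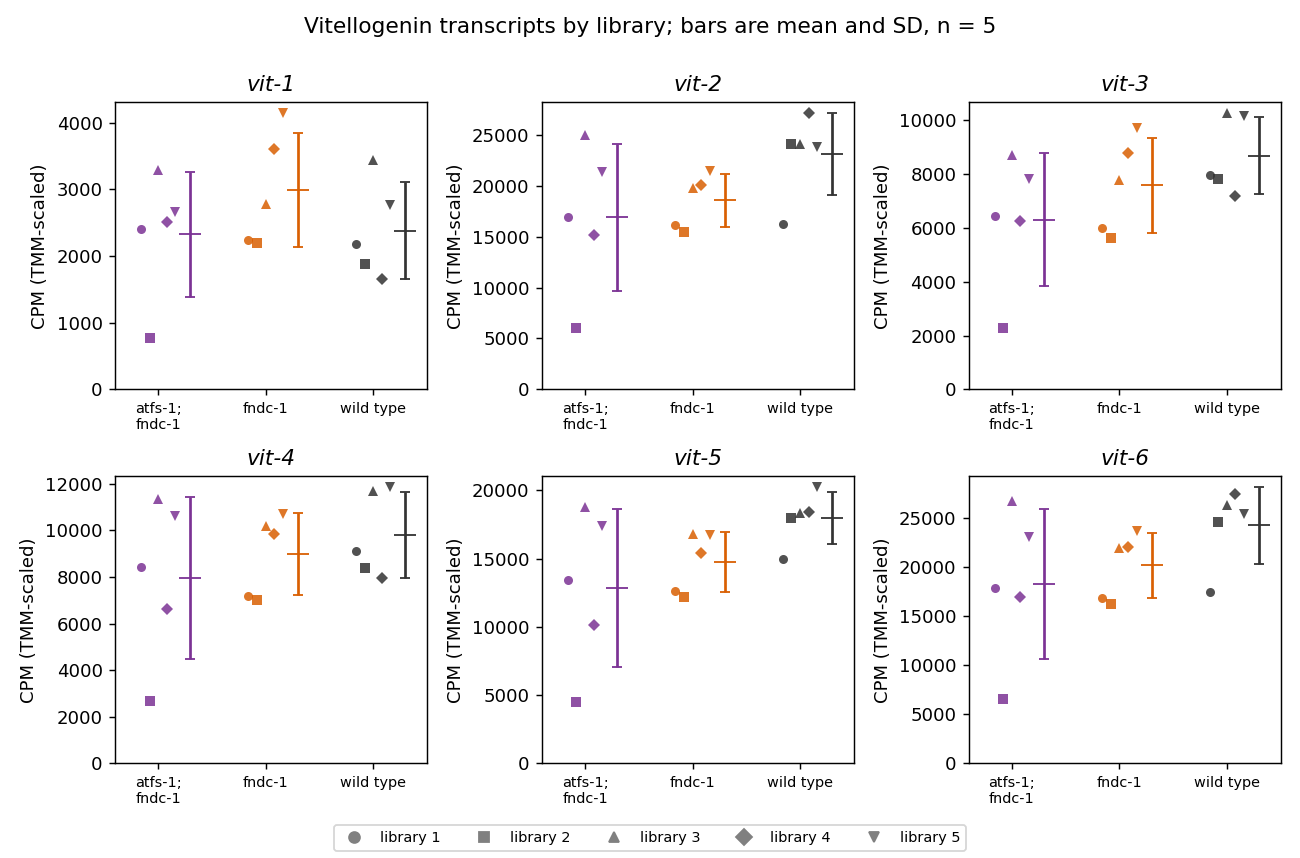
CPM of vit-1 to vit-6 in each library, by strain, 1 panel per gene; points are libraries and bars the mean ± SD of 5. In each panel the low double-mutant point is library 2, and the 3 strains overlap for all 6 genes.

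The first comparison concerns the loss of fndc-1 alone. The fndc-1 mutant had 5 of the 6 vit genes below wild type on average and vit-1 above, none beyond the spread between libraries: for all 6 genes the strains overlapped, as they did for all but 8.03% of the genes tested. vit-2 averaged 18573 ± 2600.5 CPM in fndc-1 worms and 23083 ± 4045 CPM in wild type (SD, n = 5 each), a log2 fold change of -0.31 (SE 0.28, 95% interval -0.91 to 0.29; adjusted p = 0.700, edgeR's quasi-likelihood test). vit-1 averaged 2994 ± 855 CPM in fndc-1 worms and 2384 ± 722 CPM in wild type, a log2 fold change of 0.33 (SE 0.32, interval -0.35 to 1.01; adjusted p = 0.730, same test). The log2 fold changes of vit-3, vit-4, vit-5 and vit-6 were -0.19, -0.13, -0.29 and -0.27, with adjusted p of 0.841, 0.915, 0.737 and 0.758. Leaving out 1 library at a time kept the sign of all 6 but moved vit-1 between 0.19 (without fndc-1 library 5) and 0.50 (without wild-type library 3), vit-3 between -0.29 (without fndc-1 library 5) and -0.11 (without fndc-1 library 2), and vit-4 between -0.19 (without wild-type library 4) and -0.036 (without wild-type library 5). Without both fndc-1 libraries 4 and 5 vit-1 was at 0.044. By edgeR 0 of the 6 genes passed the threshold of an adjusted p of 0.05, which 1.87% of all genes tested passed, and 0 were under an unadjusted p of 0.05, against 14.9% of all genes; DESeq2 and limma-voom also called 0. The median of the 6 log2 fold changes was -0.23, beside 0.0034 over all genes tested. The edgeR test took its spread from all 15 libraries, including the variable double-mutant ones. With library 2 of that strain dropped, the lowest unadjusted p among the 6 went from 0.283 to 0.082. With its library 4 dropped as well it was 0.036, and 1 of 6 was under 0.05, beside 3644 of 15234 genes. Fitting only fndc-1 and wild type gave 0.036, with 2 of 6 under 0.05, beside 3081 of 14439 genes. In each of these fits 0 of 6 passed the adjusted threshold.

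The double mutant had lower averages than wild type for all 6 genes, and each overlapped wild type, where 6.63% of all genes did not. vit-5 averaged 12856 ± 5784 CPM in the double mutant and 17971 ± 1911 CPM in wild type, a log2 fold change of -0.48 (SE 0.28, 95% interval -1.09 to 0.12; adjusted p = 0.321, edgeR's quasi-likelihood test). vit-2 averaged 16870.5 ± 7182 CPM in the double mutant and 23083 ± 4045 CPM in wild type, a log2 fold change of -0.45 (interval -1.054 to 0.15; adjusted p = 0.349). The log2 fold changes of vit-1, vit-3, vit-4 and vit-6 were -0.03, -0.46, -0.30 and -0.41, with adjusted p of 0.957, 0.336, 0.547 and 0.396. By edgeR 0 of 6 passed, against 4.71% of all genes tested, and 0 were under an unadjusted p of 0.05, against 21.3%; DESeq2 and limma-voom again called 0. The median was -0.43 over the 6 genes and -0.0023 over all genes tested. Without library 2 of the double mutant the log2 fold changes shrank to -0.26 for vit-2, -0.27 for vit-3, -0.10 for vit-4, -0.29 for vit-5 and -0.22 for vit-6, and vit-1 turned to 0.17.

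The third comparison adds the atfs-1 allele to the fndc-1 mutant. The log2 fold changes of vit-1 to vit-6 in the double mutant relative to fndc-1 were -0.36, -0.14, -0.26, -0.18, -0.20 and -0.14, with adjusted p of 0.617 to 0.821 in edgeR's quasi-likelihood test. All 6 overlapped between the strains, where 4.22% of all genes did not. vit-1, with the widest of these differences, averaged 2329.8 ± 937 CPM in the double mutant and 2994 ± 855 CPM in the fndc-1 mutant, with an interval of -1.04 to 0.32. By edgeR 0 of 6 passed, beside 0.978% of all genes tested, and 0 were under an unadjusted p of 0.05, against 11.4%; DESeq2 and limma-voom called 0 as well. The median was -0.19, beside 0.017 over all genes. Without library 2 of the double mutant, vit-2, vit-4, vit-5 and vit-6 were level with or above the fndc-1 mutant, at 0.067, 0.034, 0.010 and 0.062, and vit-1 and vit-3 were still below it, at -0.15 and -0.059. Over all single libraries left out, vit-1 stayed between -0.53 and -0.15 and vit-3 between -0.42 and -0.059. A p above the threshold does not show that levels were equal: the fold intervals still allow vit-2 in the fndc-1 mutant to be between 0.530 and 1.22 times wild type, and vit-5 in the double mutant between 0.471 and 1.09 times.

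**Figure D3:**
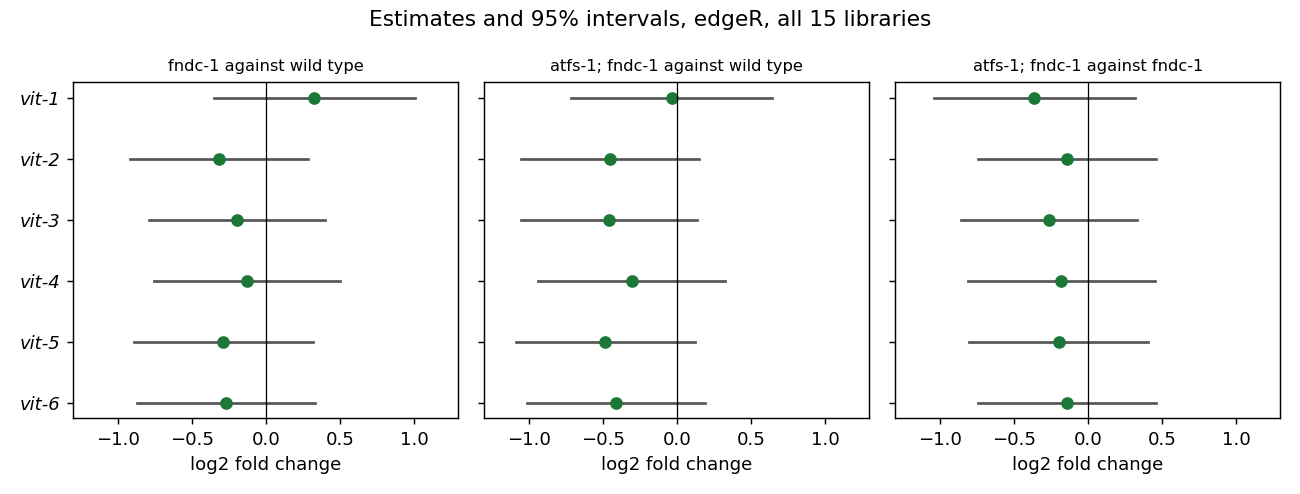
Log2 fold change of vit-1 to vit-6 with 95% intervals from edgeR for the 3 comparisons, from all 15 libraries; points are estimates and lines intervals. All 18 intervals include 0.

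The double-mutant libraries were the most variable. The coefficient of variation over the 5 libraries was 39.1% to 45% for the 6 genes in the double mutant, 14% to 28.6% in the fndc-1 mutant, and 10.6% to 18.9% in wild type except for vit-1, at 30.3%. Leaving out library 2 brought the double mutant to 14.6% to 26.2%. In that library the 6 genes were between -1.81 and -1.67 on the log2 scale relative to the mean of the other 4 double-mutant libraries.

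The fall was not limited to the yolk genes, and the medians by transcript length were lower for longer genes. In library 2 the median log2 difference from the other double-mutant libraries was 0.70 for 427 genes under 500 exonic bases and 0.39 for 1613 genes of 500 to 1000 bases. It was -0.11 for 3390 genes of 1000 to 2000 bases, -0.74 for 2108 genes of 2000 to 4000 bases and -1.44 for 599 genes of 4000 bases or more, whose quartiles were -1.88 and -1.048. The vit genes stood at the 29.5 to 36.2 percentiles of those 599, well inside their spread. The intestine markers, with a median length of 1650.5 bases, were at a median of -0.07 in the same library, and the body wall muscle genes, with a median of 4764 bases, at -1.26. Not all gene groups lay near the median of their length class: the oocyte and eggshell genes, with a median of 1779.5 bases, were at -0.69, and the sperm genes, with a median of 384 bases, at -0.12. The cuticle and moulting genes, with a median of 1569 bases, were at -0.26, and 4 embryo genes, with a median of 1803.5 bases, at -0.75. The part of transcript length or RNA quality in the low vit values of library 2 was not tested.

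The vit genes and the long genes leaned the same way in most libraries. Counting all 15, the mean vit deviation from the rest of the strain and the median deviation of genes of 4000 bases or more had the same sign in 12 libraries. In wild-type library 1 the vit genes were at -0.31 and the long genes at -0.32. In double-mutant library 3 the vit genes were at 0.84, further from the rest of their strain than the long genes at 0.47. In libraries 1 and 2 of the fndc-1 mutant the vit genes were at -0.34 and -0.40, while the long genes were at -0.064 and -0.13. The signs differed in library 3 of the fndc-1 mutant and in wild-type libraries 2 and 4. Values of this kind within a strain depend on each other, since each library is set against the others. In the double mutant the low library 2 is part of the rest for every other library. It raises both of their values, so their shared sign, and the size of 0.84 and 0.47 in library 3, come in part from library 2.

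**Figure D4:**
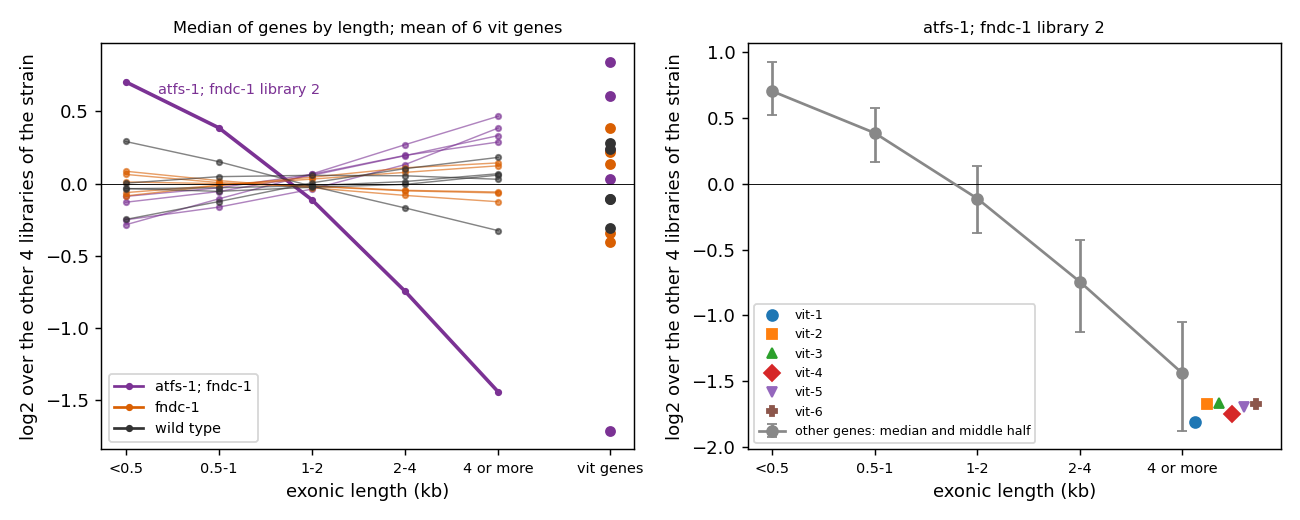
Left, the median log2 difference of each library from the other 4 of its strain by exonic length in kilobases (lines), with the mean of the 6 vit genes (points at the right edge). Right, double-mutant library 2 alone, with medians and quartiles of genes by length and each vit gene: the median falls to -1.44 for the longest genes and the vit genes lie between -1.81 and -1.67.

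The yolk genes of a library moved together, and vit-1 least so. Pearson's r of log2 CPM over the 15 libraries, which share depth and scaling between genes, was 1.00 for vit-2 and vit-6 and 0.98 for vit-3 and vit-4. Without library 2 of the double mutant (n = 14) these were 0.99 and 0.91. For vit-1 and vit-2, r was 0.71 over 15 libraries and 0.13 over 14. For vit-1 and vit-3 it was 0.88 over 15 and 0.63 over 14. vit-2 on chromosome X thus tracked vit-6 on chromosome IV more closely than it tracked vit-1, also on X.

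Ratios between members within a library do not depend on how the libraries were scaled. The log2 ratio of vit-1 to vit-3 was -1.42, -1.57, -1.40, -1.32 and -1.56 in libraries 1 to 5 of the double mutant and -1.41, -1.36, -1.48, -1.29 and -1.23 in the fndc-1 mutant. In wild type it was -1.87, -2.06, -1.58, -2.12 and -1.87. All wild-type ratios were below all ratios of both mutants. The difference was 0.54 for the fndc-1 mutant and 0.45 for the double mutant, both against the same wild-type libraries, with an exact permutation p of 0.00794 in each, the smallest that 5 against 5 allows (two-sided). The 15 pairs were taken through the 3 comparisons after vit-1 had been seen to differ, and of the 45 tests 7 had an unadjusted exact p under 0.05 and 0 passed Benjamini-Hochberg adjustment; the exact permutation p adjusted over the 45 was 0.179 for both. Since no exact permutation p can be under 0.00794, no ratio can pass over 45 tests unless several other tests also have a very small p. The adjusted values therefore do not decide whether the ratio of vit-1 to vit-3 differed. The double mutant and the fndc-1 mutant overlapped in the ratio of vit-1 to vit-3, with a difference of -0.099 (exact permutation p = 0.167).

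**Figure D5:**
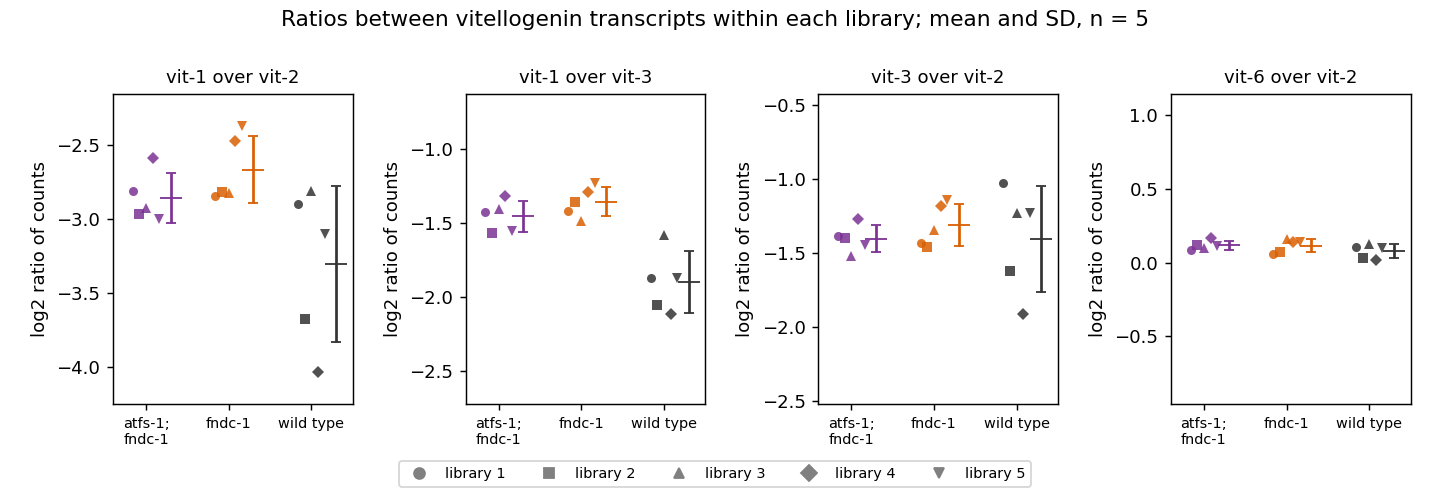
Log2 ratio of counts in each library, by strain, for vit-1 over vit-2, vit-1 over vit-3, vit-3 over vit-2 and vit-6 over vit-2; points are libraries and bars the mean ± SD of 5. For vit-1 over vit-3 the wild-type points lie between -2.12 and -1.58 and the points of both mutants between -1.57 and -1.23.

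vit-1 relative to vit-2 separated the wild-type libraries among themselves. The log2 ratio was -2.81, -2.97, -2.92, -2.59 and -3.0 in the double mutant, -2.85, -2.82, -2.83, -2.47 and -2.37 in the fndc-1 mutant, and -2.90, -3.68, -2.81, -4.03 and -3.10 in wild type. Wild-type libraries 2 and 4 had the lowest ratios and overlap was otherwise wide. vit-3 over vit-2 was also lowest in these 2 libraries, at -1.62 and -1.92, against -1.03, -1.23 and -1.23 in wild-type libraries 1, 3 and 5. The difference between the fndc-1 mutant and wild type was 0.64 with all libraries (exact permutation p = 0.0317, adjusted 0.238) and 0.27 without wild-type libraries 2 and 4. For vit-1 over vit-3 the differences without those 2 libraries were 0.42 for the fndc-1 mutant and 0.32 for the double mutant, still without overlap (exact permutation p = 0.0357 each, the smallest that 5 against 3 allows). Over vit-4, a near-identical copy of vit-3, the strains overlapped with all libraries, with differences of 0.46 for the fndc-1 mutant (exact permutation p = 0.0159) and 0.31 for the double mutant (exact permutation p = 0.0397). Without wild-type libraries 2 and 4 these were 0.37 and 0.22 (exact permutation p = 0.0714 and 0.179), and vit-1 over vit-5 and over vit-6 overlapped as well. The absence of overlap thus held for vit-3 alone among the other 5 genes, and the split of reads between vit-3 and its copies is uncertain. By contrast the ratio of vit-6 to vit-2 stayed between 0.019 and 0.166 on the log2 scale in every library.

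Wild-type libraries 2 and 4 also differed in other markers. Transcripts of 40 sperm genes, such as the major sperm proteins, summed to 365 and 293 CPM in them, against 62.5, 68.1 and 60.8 CPM in wild-type libraries 1, 3 and 5. In the double mutant the sum was 351, 357, 283, 1055 and 229 CPM, and in the fndc-1 mutant 228, 126, 151, 539 and 279 CPM. The intestine markers summed to 6874 and 6667 CPM in wild-type libraries 2 and 4 and to 4778, 4189 and 4677 CPM in the other 3. PQM-1 is a transcription factor of the intestine; pqm-1 had 14.6, 23.2, 15.9, 18.8 and 22.2 CPM in the double mutant, 34.9, 24.2, 22.1, 15.2 and 12.1 CPM in the fndc-1 mutant, and 24.7, 48.7, 17.3, 54.2 and 27.6 CPM in wild type. Its highest values were thus wild-type libraries 2 and 4. The part of any of these differences in the vit-1 ratios was not tested.

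No listed regulator of yolk synthesis and no listed gene of yolk uptake passed the test with all libraries. Of 17 listed regulators of vit transcription or yolk provisioning, 0 passed edgeR's test in any of the 3 comparisons, with 1 under an unadjusted p of 0.05 in the fndc-1 mutant against wild type, 4 in the double mutant against wild type and 0 in the double mutant against the fndc-1 mutant. Over all genes tested, 14.9%, 21.3% and 11.4% were under that p in the same comparisons. DESeq2 called ceh-60 in the first and lin-28 in the second, and limma-voom called 0 in all 3. With DESeq2, 476 of 13792 genes were higher in the first, as ceh-60 was, and 525 of 14955 were lower in the second, as lin-28 was. The median log2 fold changes of the list in these comparisons were -0.0077, -0.20 and -0.17. Library 2 of the double mutant had a median of -0.91 for 15 of these genes, whose median length is 3665 bases, and without it the medians were -0.018, -0.13 and -0.048.

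Listed transcription factors gave the following levels. UNC-62 and CEH-60 are homeodomain factors that act on vit genes in the intestine. unc-62 averaged 40.1 ± 10.12 CPM in the double mutant, 44.3 ± 2.12 CPM in fndc-1 worms and 40.2 ± 2.58 CPM in wild type. ceh-60 averaged 9.20 ± 0.97 CPM in the double mutant, 10.9 ± 1.52 CPM in fndc-1 worms and 8.08 ± 1.47 CPM in wild type, with a log2 fold change of 0.44 between the fndc-1 mutant and wild type (adjusted p = 0.135, edgeR's quasi-likelihood test). elt-2, the main GATA factor of the intestine, averaged 16.1 ± 1.76 CPM in the double mutant, 16.8 ± 2.92 CPM in fndc-1 worms and 16.6 ± 3.95 CPM in wild type. pqm-1 averaged 18.9 ± 3.76 CPM in the double mutant, 21.7 ± 8.89 CPM in fndc-1 worms and 34.5 ± 16 CPM in wild type, a log2 fold change of -0.87 for the double mutant (adjusted p = 0.150) and -0.67 for the fndc-1 mutant (adjusted p = 0.347). mab-3, the repressor, was below 1 CPM on average in every strain: 0.638 ± 0.358 in the double mutant, 0.431 ± 0.0665 in the fndc-1 mutant and 0.3295 ± 0.0883 in wild type. Once library 2 was left out, edgeR called 665 of 15127 genes higher in the double mutant against wild type. mab-3 was among them, the only listed regulator to pass. Its level in library 4 of the double mutant was 1.25 CPM and at most 0.575 CPM in the other 4, and library 4 also had the highest sum of sperm markers; the part of that library was not tested.

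On the side of the oocyte, rme-2 averaged 1038 ± 257 CPM in the double mutant, 1117 ± 170.1 CPM in fndc-1 worms and 1207 ± 121 CPM in wild type. dsc-4, the microsomal triglyceride transfer protein that loads lipid onto yolk particles, averaged 85.5 ± 27.5 CPM in the double mutant, 72.0 ± 7.01 CPM in fndc-1 worms and 69.1 ± 11.2 CPM in wild type. Of the 13 genes of yolk assembly, uptake and endocytic traffic, 0 passed edgeR's test in any comparison. Under an unadjusted p of 0.05 there were 0 in the fndc-1 mutant against wild type, 3 in the double mutant against wild type, where 21.3% of all genes were, and 0 in the double mutant against the fndc-1 mutant. The list medians in these comparisons were -0.0043, -0.20 and -0.11, with limma-voom calling 0 in all 3 and DESeq2 calling rab-10 in the second. In the second, DESeq2 called 525 of 14955 genes lower, as rab-10 was. Without library 2 edgeR called rab-7 lower in the fndc-1 mutant against wild type, beside 362 of 15127 genes. It called rab-7 and rab-10 lower in the double mutant against wild type, beside 492 of 15127 genes. rab-7 and rab-10 encode small GTPases of endosomal traffic.

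Among the 12 intestine markers, which were read from whole worms like all genes here, a few passed edgeR's test. In the fndc-1 mutant against wild type 1 passed, where 1.87% of all genes tested did. In the double mutant 2 passed against wild type and 1 against the fndc-1 mutant, beside 4.71% and 0.978% of all genes tested. mtl-2, a metallothionein, fell in the fndc-1 mutant to 155 ± 8.10 CPM, against 259.9 ± 41.7 CPM in wild type, a log2 fold change of -0.75 (adjusted p = 0.0107, edgeR's quasi-likelihood test). It averaged 248 ± 54.4 CPM in the double mutant and was higher there than in the fndc-1 mutant (log2 fold change 0.68, adjusted p = 0.0259). act-5, the actin of the intestinal brush border, rose to 702 ± 106 CPM in the double mutant, against 491 ± 83.3 CPM in wild type (log2 fold change 0.52, adjusted p = 0.0288). vha-6, a proton pump subunit of the same membrane, rose to 326 ± 53.6 CPM in the double mutant, against 242 ± 20.3 CPM in wild type (log2 fold change 0.43, adjusted p = 0.0496); limma-voom did not call it. In the fndc-1 mutant vha-6 averaged 333 ± 41.9 CPM, a log2 fold change of 0.46 against wild type (adjusted p = 0.0617, edgeR), and act-5 averaged 630.1 ± 52.3 CPM, a log2 fold change of 0.36 (adjusted p = 0.177). DESeq2 called both there, beside 476 of 13792 genes higher. Without library 2 of the double mutant edgeR called vha-6 there, beside 374 of 15127 genes higher. In each comparison the remaining 10 or 11 of the 12 markers did not pass, and the list median was 0.087, -0.041 and 0.0036 for the fndc-1 mutant against wild type, the double mutant against wild type and the double mutant against the fndc-1 mutant.

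Markers of other cell types gave few calls. Among the 15 cuticle and moulting genes col-19, an adult collagen, rose in the double mutant relative to wild type (log2 fold change 0.88, adjusted p = 0.0118, edgeR's quasi-likelihood test). Of 8 body wall muscle genes mup-2, a troponin, rose in the same comparison (0.77, adjusted p = 0.0142, same test). There 4.71% of all genes tested passed. The muscle genes as a set overlapped, with sums of 1577 to 3360 CPM in the double mutant and 1450 to 2422 CPM in wild type. DESeq2 also called col-19, mup-2 and tni-1, another of the muscle genes, higher in the fndc-1 mutant against wild type. It called tni-1 higher in the double mutant against wild type as well. Over all genes DESeq2 called 476 of 13792 higher in the fndc-1 mutant and 847 of 14955 higher in the double mutant, each against wild type. By limma-voom only col-19 and mup-2 were called in these lists, both in the double mutant against wild type. None of the 37 tested sperm genes passed in any comparison, although their median log2 fold change was 1.56 in the double mutant against wild type, where 23 had an unadjusted p under 0.05 with edgeR, 33 with DESeq2 and 34 with limma-voom, beside 21.3% of all genes with edgeR. DESeq2 and limma-voom also called 0 of them. The summed sperm markers overlapped between these strains, at 229 to 1055 CPM in the double mutant and 60.8 to 365 CPM in wild type. The 16 oocyte and eggshell genes and the 7 tested embryo genes also gave 0 calls with edgeR on all libraries, with 3 and 1 under an unadjusted p of 0.05 in the fndc-1 mutant against wild type, 3 and 2 in the double mutant against wild type and 2 and 0 in the double mutant against the fndc-1 mutant. In the double mutant against wild type, cpg-3, an eggshell proteoglycan gene, was called lower by DESeq2, and by edgeR without library 2. In the same fits 525 of 14955 and 492 of 15127 genes were called lower. DESeq2 called elt-3, a GATA factor of the epidermis, higher in both mutants against wild type, and limma-voom called 0 in both lists. Their medians in the double mutant against wild type were -0.24 and -0.10.

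The genes whose pattern was most like that of the yolk genes were found by Pearson's r between log2 CPM and the mean centred log2 CPM of the 6 vit genes, over the 15 libraries and among 3962 genes with a mean of at least 50 CPM. The 5 highest were taf-2, ppw-1, R06A4.2, apd-3 and Y53F4B.9, each at 0.98. Without library 2 of the double mutant these were 0.91, 0.90, 0.90, 0.89 and 0.90. taf-2 had 17.0 CPM in that library and 44.1 to 62.9 CPM in the other 4 of the double mutant, 43.9 to 59.3 CPM in fndc-1 worms and 49.8 to 62.2 CPM in wild type. The 3 lowest were cox-5B at -0.96, cox-6B at -0.94 and ril-1 at -0.94; the first 2 encode subunits of cytochrome c oxidase, and all 3 are short, with 826, 572 and 593 exonic bases. Their r without library 2 was -0.79, -0.72 and -0.72. Of the 5 highest over the 15 libraries, the 4 with an annotated length have 3106 to 4129 exonic bases. Without library 2 of the double mutant, enu-3.2, with 1727 exonic bases, was at rank 5 with an r of 0.89, and apd-3 was at rank 6. The libraries and their depth are shared by all these points, and the part of transcript length was not tested.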

How the data were processed

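RNA of whole worms was sequenced from 3 strains, 15 libraries in all; the labels name both a TruSeq RNA and a TruSeq Stranded mRNA kit. The authors deposited raw counts per gene as whole numbers. The submitters' processing notes name Trimmomatic 0.36, STAR 2.6.0c, Subread 1.6.1 and featureCounts, with the build WBcel235. Not given in the sources used here are the annotation release, the strand setting and the treatment of reads that map repeatedly.

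Genes were kept by filterByExpr (minimum count 10, minimum total 15), which left 15032 of 20191, and 789 had no count. CPM used TMM-scaled library sizes. Strain means were fitted to all 15 libraries without covariates and compared by edgeR's quasi-likelihood F-test, which is two-sided (edgeR 4.0.16, R 4.3.3). Benjamini-Hochberg adjustment ran over all genes tested, with a threshold of 0.05, and adjusted p-values come from this test unless another is named. Intervals are 95% intervals from the t distribution. Levels per length used exonic bases from the Ensembl release 115 annotation of WBcel235. Ratios were compared by exact permutation tests.

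Total counts were 46984106 to 61921123. The lowest chi-square between libraries of 1 strain was 8.07 per gene, so none repeated another within sampling noise. In counts simulated for the 3 comparisons (fndc-1 and the double mutant each against wild type, then double mutant against fndc-1), the test recovered 71, 68 and 64 of 100 genes changed 2-fold and 31, 30 and 31 of 100 changed 1.5-fold. The changed genes were drawn at random from expressed genes, and no simulated library was given lower counts for long genes. These shares therefore do not give the recovery for genes like the vit genes.

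The members, the gene lists and the pairs of genes were chosen with earlier results of these data known. Genes named were the 6 members, fndc-1, atfs-1, rme-2, unc-62, ceh-60, pqm-1, elt-2, list members past the threshold (up to 4, or 2 for markers), and the 5 genes most and 3 least like the members. dsc-4, mab-3, lin-28, rab-7, rab-10, cpg-3, elt-3, tni-1 and enu-3.2 were added after their values were seen. Alternatives were other scaling factors, filters, DESeq2 1.42.0, limma-voom (limma 3.58.1), fits of 2 strains, the replicate number as a block, summed copies, and libraries left out.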

Additional observations from a re-analysis of the deposited data

Results flagged for a closer look

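Within strains, 105 groups of 5 values were searched by Dixon's test for a library far from its neighbours: the vit genes as CPM and log2 CPM, their share of the counts, 6 of their ratios, 14 other named genes and the summed sperm and intestine markers. There were 8 such values, and chance gives about 1 in 20. The groups share libraries, so these are not separate events.

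In the double mutant, vit-1 was lowest at 9.59 log2 CPM, with the next library at 11.23, and vit-3 was lowest at 11.16, with the next at 12.62. Both are library 2, in which the other 4 vit genes and long genes in general were also low. In wild type, vit-2 was lowest at 13.99 log2 CPM, with the next library at 14.54, and vit-6 was lowest at 14.09, with the next at 14.58. Both are wild-type library 1, where the median of genes of 4000 bases or more was -0.32 relative to the rest of the strain. In the fndc-1 mutant the log2 ratio of vit-5 to vit-2 was highest at -0.23 in library 3, with the next at -0.34. The part of transcript length in these values was not tested.

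Among other named genes, fndc-1 was highest at 10.16 CPM in library 2 of the double mutant, with the next library at 7.82. mab-3 was highest in the double mutant at 1.25 CPM in library 4, with the next at 0.575. The sperm markers were highest in library 4 of the double mutant, at a sum of 1055 CPM, with the next library at 357 CPM.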

How the results depend on the processing

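Over 29 other settings, 0 of the 522 vit fold changes passed the threshold (lowest adjusted p 0.174, vit-5 in the double mutant against wild type by edgeR without double-mutant library 3), and 20 changed sign, none of them past the threshold. For vit-1 in the double mutant against wild type (-0.03) the log2 fold change was 0.0076 with upper-quartile factors, 0.17, 0.14 and 0.027 without double-mutant library 2, wild-type library 3 and wild-type library 5 (range over single libraries -0.21 to 0.17), and 0.20 without double-mutant libraries 2 and 4, which also gave 0.024 for vit-4. In the double mutant against fndc-1, leaving out single libraries gave -0.33 to 0.067 for vit-2, -0.35 to 0.034 for vit-4, -0.38 to 0.010 for vit-5 and -0.33 to 0.062 for vit-6. Without double-mutant libraries 2 and 4, vit-2 to vit-6 were 0.17, 0.0050, 0.16, 0.15 and 0.15, and with wild-type libraries 2 and 4 also left out 0.17, 0.0048, 0.16, 0.15 and 0.15. The cause was not tested.

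Counts over all genes for fndc-1 against wild type (281), the double mutant against wild type (708) and the double mutant against fndc-1 (147) moved more. DESeq2 gave 779, 1372 and 363. Fits of only the strains compared gave 575 and 275 for the first pair of comparisons. Leaving out double-mutant libraries 2 and 4 gave 1116 for the first, wild-type libraries 2 and 4 gave 115 and 1068 for the first and second, and leaving out all 4 gave 1909 for the first. Single libraries left out gave 146 to 736, 397 to 1157 and 106 to 161, with the highest of each without double-mutant library 2. The first count was 149, 146 and 157 without fndc-1 libraries 1, 2 and 3 and 162 and 185 without wild-type libraries 2 and 5, with wild-type library 4 between 149 and 157. Leaving out wild-type library 2, 4 or 5 gave 425, 397 or 400 for the second, and double-mutant library 4 or 5 gave 447 or 407. With the replicate number as a block the first count was 155, and 0 vit genes passed (lowest adjusted p 0.189 by edgeR, vit-3 in the double mutant against wild type). In that comparison 2 of the 6 vit genes were under an unadjusted p of 0.05, beside 3284 of 15032 genes. Same-numbered libraries correlated at -0.57 to 0.67, and those numbered 4 at 0.35, 0.48 and 0.67. Whether a shared number marks a batch was not tested. With vit-3, vit-4 and vit-5 summed, the log2 fold changes were -0.22, -0.43 and -0.21 in the 3 comparisons, with adjusted p of 0.816, 0.382 and 0.734 by edgeR. The difference in the vit-1 to vit-3 ratio stayed between 0.49 and 0.62 for the fndc-1 mutant and between 0.39 and 0.53 for the double mutant, without overlap, when single libraries were left out. vit-1 over vit-4 overlapped with all libraries. Settings leaving out wild-type libraries 2 and 4, or fndc-1 libraries 4 and 5, were chosen after seeing the data. Depth does not limit genes at this level, but the spread between 5 libraries does.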

Other observations

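With library 2 of the double mutant left out, the genes that ran most opposite to the mean of the yolk genes among the 3962 examined were pud-2.1, pud-2.2 and pud-1.1, with Pearson's r of -0.81, -0.80 and -0.80 over 14 libraries. These genes encode small proteins first known as raised in daf-2 mutants, and reads may be split among their near-identical copies. pud-1.1 had 199, 417, 174, 364 and 228 CPM in libraries 1 to 5 of the double mutant, 358, 305, 281, 109 and 109.6 CPM in the fndc-1 mutant, and 243, 269.7, 107, 251.9 and 149 CPM in wild type. It was low in libraries 4 and 5 of the fndc-1 mutant, where vit-1 was highest, and the strains overlapped. Strain means were 276 ± 107 CPM in the double mutant, 233 ± 116 CPM in fndc-1 worms and 204 ± 71.7 CPM in wild type (SD, n = 5 each). The mean of the yolk genes does not stand for each of them: over the 14 libraries r was 0.13 for vit-1 and vit-2. Wild-type library 4, with 251.9 CPM of pud-1.1, had the highest vit-2 of its strain, 27134 CPM, and the lowest vit-1, 1658 CPM. How each vit gene ran against the pud genes was not tested.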
